A study of Mus musculus with 2 samples.

Results

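The usual upper limit of 2500 detected genes per cell left out 537 T cells from the single-cell library of TCR-β+ T cells sorted from B16 and B16–IL-33 tumors. These cells, called high-gene T cells here, were chosen by values of the gene expression library alone. They had more than 2500 detected mouse genes, under 5% mitochondrial UMIs (unique molecular identifiers, counts of captured transcripts), at least 3 UMIs of the CD3 genes *Cd3d*, *Cd3e* and *Cd3g*, 0 UMIs of *Csf1r*, fewer than 3 of *Lyz2* and fewer than 20 of the melanocyte genes *Pmel*, *Mlana*, *Dct* and *Tyrp1*. Of 14035 barcodes, 787 had more than 2500 genes, 766 of them met the mitochondrial limit, 622 the CD3 limit, 573 had no *Csf1r*, 554 were under the *Lyz2* limit and 537 under the melanocyte limit. They were compared with 7200 T cells of 200 to 2500 genes under the same other limits (reference T cells). They made up 6.94% of the 7737 T cells of both groups and held 24.2% of their UMIs. A comparison with the 496 reference T cells of over 2000 to 2500 genes, just below the limit, was added after the data were seen.

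B16 is a mouse melanoma line, the hosts had a C57BL/6 background by the methods, and B16–IL-33 was engineered to secrete the cytokine IL-33 in excess. The labels give no age of the mice and do not say how many were pooled. T cells of both tumors were labelled with hashtag antibodies, pooled and run as 1 gene expression library, 1 hashtag library and 1 library of T cell receptor contigs. The pool is therefore 1 sample without replicates. No test across animals was possible, so differences between groups of cells carry no p-value. Ranges in parentheses are 95% intervals that cover counting error only.

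Resting T cells are small and quiescent, a state held by factors such as *Klf2*, *Tcf7* and *Foxp1*. After antigen stimulation they enlarge, build ribosomes and pass through S phase, in which DNA is copied, and G2/M, in which chromosomes condense and separate. A dividing cell holds more RNA than a resting one, so a droplet with it gives more UMIs and more detected genes. A droplet that caught a pair of cells also gives more genes, which is the usual reason for an upper limit. Most αβ T cells express 1 rearranged T cell receptor β chain (TRB), since a productive rearrangement blocks the other allele, whereas the α chain (TRA) is less strictly controlled and a second productive α chain is common. Lineage genes mark 3 main classes: *Cd8a* and *Cd8b1* the CD8+ cells, *Cd4* the CD4+ cells, and *Foxp3* the regulatory T (Treg) cells.

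β chains of 3 kinds of high-gene T cell are shown as the nucleotide sequence of the CDR3, the stretch made by joining V, D and J segments that identifies a clone. Capitals mark the first and last codon, those of the conserved cysteine and phenylalanine that bound it. The first pair comes from the cell with 2 β chains and the most β chain UMIs, which had 3013 genes, 15314 UMIs, 18 UMIs of *Cd8a* and *Cd8b1* and 0 of *Cd4* and *Foxp3*. It had 1 α chain.
TRBV17 TRBJ2-7, 34 UMIs: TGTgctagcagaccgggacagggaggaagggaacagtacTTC
TRBV5 TRBJ2-1, 24 UMIs: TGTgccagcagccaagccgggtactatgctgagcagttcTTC
The second pair, chosen after its values were seen, shared 1 barcode with 3134 genes, 18 UMIs of the CD8 genes, 3 of *Cd4* and 1 of *Foxp3*. Its first chain was the only β chain of 8 other barcodes, 6 of them CD8+. Its second chain was the only β chain of 3 others, 1 of them a Treg cell.
TRBV19 TRBJ1-3, 8 UMIs: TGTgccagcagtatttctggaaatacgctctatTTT
TRBV5 TRBJ2-5, 4 UMIs: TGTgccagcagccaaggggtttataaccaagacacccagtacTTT
The last chain belonged to the clonotype with the most high-gene T cells, 5 cells that were all CD8+, with 131 UMIs of the CD8 genes and 0 of *Cd4* and *Foxp3* in total. The same clonotype held 5 reference T cells. The UMIs printed with its chain are those of the clonotype, whereas those of each pair above are of 1 cell.
TRBV10 TRBJ1-1, 128 UMIs: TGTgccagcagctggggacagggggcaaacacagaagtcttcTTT
The chains of the first cell occurred nowhere else in the library, whereas both chains of the second also occurred alone in other barcodes.

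The median high-gene T cell held 12383 UMIs (range 6317 to 36612) and 2980 genes, with 5108 at most, against 2746 UMIs and 1132 genes in reference T cells. The 4.51-fold difference in median UMIs follows from the choice by genes and is no result. The CD3, *Csf1r*, *Lyz2* and melanocyte genes were used to choose the cells, so they do not check the label of T cells. When each cell was thinned to 1500 randomly drawn UMIs, a *Cd3e* UMI was left in 63.9% of high-gene and 74.2% of reference T cells. The receptor library, which the rule did not use, held a productive β chain for 87.9% of them. Of markers of other cells that the rule did not use, fibroblast genes had 5 UMIs over the 537 cells, neutrophil genes 19 and mast cell genes 0, whereas dendritic cell markers had 9904 and B and plasma cell markers 1059 UMIs. At 1500 UMIs the median number of detected genes was 758 in high-gene and 745 in reference T cells, 917 of which had too few UMIs and were left out. Mitochondrial transcripts took a median of 1.94% of UMIs and 2.20% in reference T cells. Of the 70 cells just above the limit (over 2500 to 2600 genes), 71.4% were cycling by the rule given next and 21.0% of those with a β chain had 2. The shares were 69.1% and 20.7% for the 68 cells just below it (over 2400 to 2500 genes).

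Most high-gene T cells carried transcripts of cell division. A cell was called cycling if at least 3 of its 1500 UMIs came from 60 genes of S phase and G2/M. By this rule 425 of 537 high-gene T cells (79.1%, 75.5 to 82.5) and 36.3% of reference T cells were cycling, a difference of 42.9 percentage points (39.0 to 46.4). The rule also called 24.3% of 148 barcodes that had at least 3 *Lyz2* and no CD3 UMIs, whose median depth before thinning was 5398 UMIs, so part of the share is at the level of such cells. With at least 6 UMIs, a limit set after the data were seen, the shares were 63.1%, 7.70% and 7.43% in the same order. The median high-gene T cell had 9 of these UMIs and the median reference T cell 2. Without thinning, 100% and 66.3% were called. A UMI of *Mki67*, a protein of dividing nuclei, was found in 24.4% of thinned high-gene T cells and 4.58% of reference T cells, and in 2.70% of the barcodes with *Lyz2* (61.6%, 8.47% and 9.52% without thinning).

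All 28 tested G2/M genes and 25 of 28 tested S phase genes were higher in high-gene T cells, where higher means at least 2 times the CPM (UMIs per 1000000 UMIs of those cells) with an interval that leaves out 1. Over all 8099 genes with at least 200 UMIs, 5.33% were higher and 6.95% were lower (at most 0.5 times), and the median ratio was 0.941. Summed over the list, G2/M genes reached 4692 CPM against 1285 CPM, a ratio of 3.65 (3.59 to 3.71), and S phase genes 2391 against 727 CPM, a ratio of 3.29 (3.22 to 3.36). Within G2/M, *Plk1* and *Aurkb*, mitotic kinases, had CPM ratios of 8.43 and 7.58, and *Ccna2*, the cyclin of S and G2, one of 8.29. *Cdk1*, the kinase that drives entry into mitosis, reached 73.0 CPM against 9.34 CPM, and *Birc5*, a subunit of the chromosomal passenger complex, 271 against 36.8 CPM. *Mki67* stood at 204 against 45.1 CPM and *Top2a*, the topoisomerase that untangles chromosomes, at 245 against 55.5 CPM. The lowest ratio of the list was that of *Kif23*, a kinesin of cytokinesis, at 2.40.

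Among S phase genes, *Cdc6*, which loads the replicative helicase, had a ratio of 8.99, and *Rrm2*, a subunit of ribonucleotide reductase, one of 8.41 (116 against 13.8 CPM). The helicase subunits *Mcm2* to *Mcm7* lay between 2.12 (*Mcm4*) and 4.64 (*Mcm3*), and *Pcna*, the sliding clamp, at 2.74. The 3 tested genes short of the 2-fold limit were *Slbp* (1.77), *Pold3* (1.72) and *Usp1* (1.98). Of 13 histone genes, 9 were higher and 0 lower, led by *Hist1h2ap* with a ratio of 5.74. *Pclaf*, a PCNA-binding factor outside the lists, reached 538 against 66.1 CPM.

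Single cells differed in which phase their transcripts marked. With each cell thinned to 6000 UMIs, the median high-gene T cell had 11 S phase and 18 G2/M UMIs. Of the 537 cells, 188 had more S phase than G2/M UMIs, 329 had more G2/M and 20 had equal numbers. At least 20 UMIs of each list were present in 110 cells, of S phase alone in 65 and of G2/M alone in 149, and neither list reached 20 in 213. The 601 reference T cells with at least 6000 UMIs had medians of 3 and 5 UMIs, and 473 of them reached 20 in neither list. Both lists together reached 20 UMIs in 65.2% (61.0 to 69.2) of high-gene T cells and in 26.1% (22.7 to 29.8) of these deeper reference T cells.

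**Figure D1:**
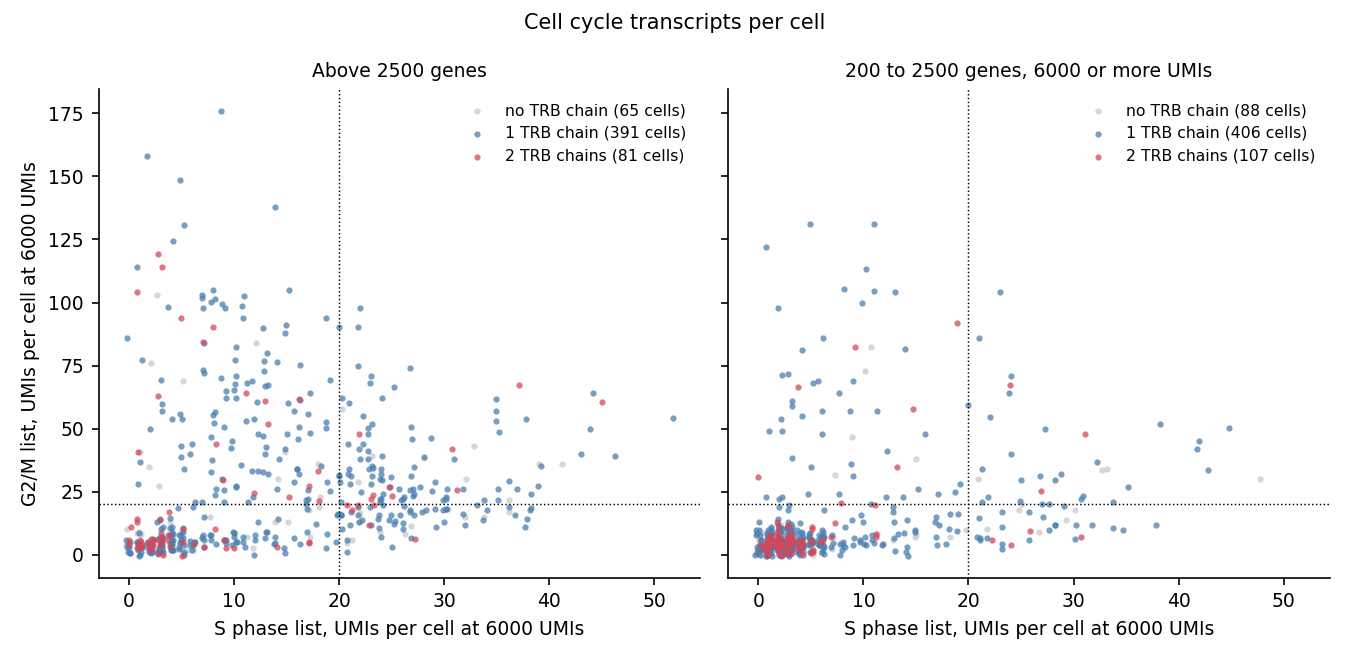
Each point is 1 cell thinned to 6000 UMIs, with its UMIs of 30 S phase genes (x axis) and 30 G2/M genes (y axis), coloured by the number of productive TRB chains, and dotted lines stand at 20 UMIs. High-gene T cells (left) spread along both axes with 213 of 537 in the lower left field, whereas 473 of 601 reference T cells (right) lie there.

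Growth genes were higher to a lesser degree. Of 20 tested genes of ribosome biogenesis and growth, 8 were higher and 0 lower, and the list summed to 5886 against 3456 CPM (ratio 1.70, 1.68 to 1.72). *Srm*, spermidine synthase, had the highest ratio (3.37), followed by *Ran*, the nuclear transport GTPase (2.92), *Impdh2*, the rate-limiting enzyme of guanine nucleotide synthesis (2.74), and *Nhp2*, a subunit of snoRNPs (2.56). *Myc*, the transcription factor that drives this program, stood at 57.7 against 47.2 CPM (1.22) and *Odc1* at 663 against 683 CPM (0.970), both short of the limit. Of 14 glycolysis genes, 0 passed the limit in either direction, 13 had ratios above 1 and the list had a ratio of 1.53. Ribosomal protein genes took 289032 CPM in high-gene and 282631 CPM in reference T cells (ratio 1.02), and 1 of 79 tested was higher.

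Genes of quiescence and lymphoid homing were lower: 13 of 14 passed the limit, 0 were higher, and the list summed to 1008 CPM against 3218 CPM (ratio 0.313, 0.306 to 0.321). *Klf2*, which maintains quiescence and drives *S1pr1*, stood at 189 against 794 CPM (0.238). *Tcf7*, a factor of naive and memory T cells, had a ratio of 0.264, *Il7r*, the receptor of the survival cytokine IL-7, one of 0.222, and *S1pr1*, the receptor for exit into blood and lymph, one of 0.252. *Bach2* (0.162) and *Igfbp4* (0.108) had the lowest ratios of the list, and *Igfbp4* had 56 UMIs in high-gene T cells, 18 of them in 1 cell. *Dapl1*, at 0.593, was the gene that did not pass. Outside the lists, *Klf3*, another factor of the quiescent state, had a ratio of 0.162.

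Effector genes differed in both directions. *Gzmc*, a granzyme of strongly activated cytotoxic cells, reached 592 CPM in high-gene and 56.7 CPM in reference T cells (ratio 10.4), and 137 high-gene T cells had a UMI of it. *Prf1*, perforin, stood at 212 against 48.7 CPM (4.36), and *Csf2*, a cytokine gene, at 15.4 against 7.30 CPM (2.11). *Gzmf* had a ratio of 13.6, but 658 of its 1021 UMIs came from 1 cell, and the ratio was 4.84 without it. *Gzmb*, the main granzyme, had a ratio of 1.76. *Ccl5*, a chemokine of effector and memory cells, stood at 1095 against 3067 CPM (0.357) and *Il10* at 20.2 against 60.4 CPM (0.334). Of 17 tested effector genes, 4 were higher and 2 lower, and of 7 inhibitory receptor genes 0 passed, with *Havcr2* at 1.73 and *Tigit* at 0.650. The protease inhibitors *Serpine2* (ratio 11.8, and 9.26 without the cell with most UMIs) and *Serpinb9b* (9.47) were among the 5 highest ratios of all genes. Of 14 activation genes, *Tfrc*, the transferrin receptor of growing cells, was higher (2.29) and *Cd69*, an early activation marker, lower (0.427).

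**Figure D2:**
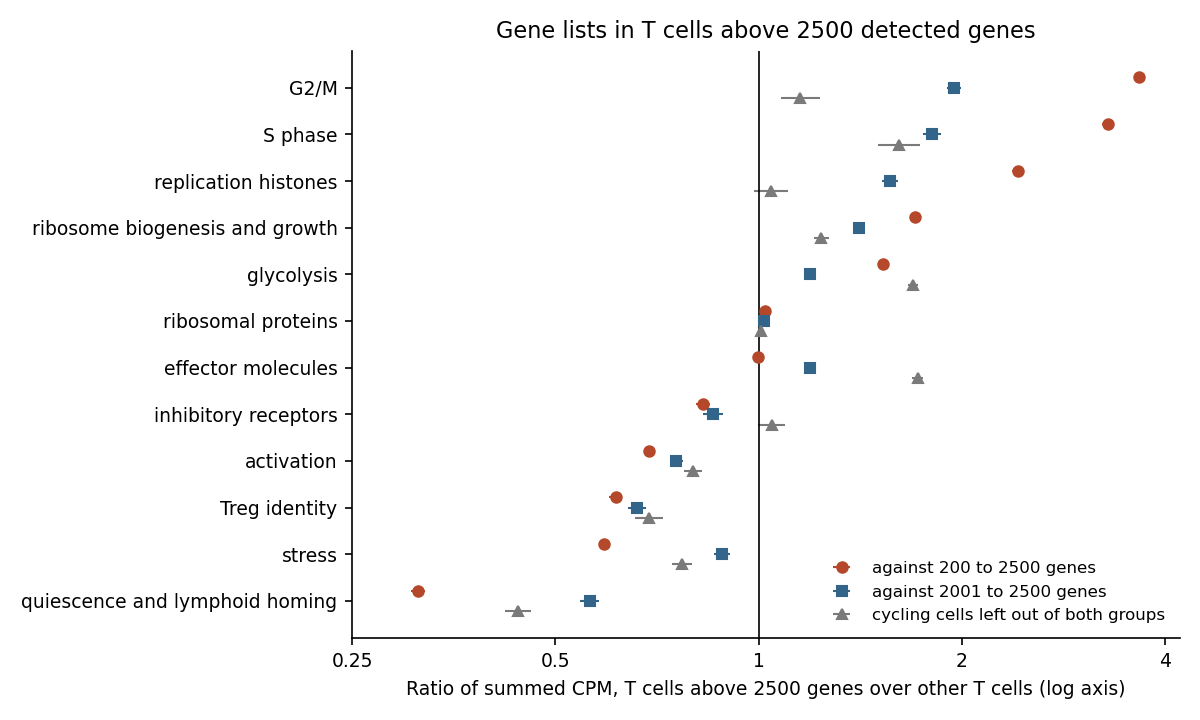
Points give the ratio of summed CPM of each gene list in high-gene T cells over reference T cells (log axis), with 95% intervals for counting error, against all 7200 reference T cells (circles), the 496 with over 2000 to 2500 genes (squares) and with cycling cells left out of both groups (triangles). G2/M lies at 3.65, 1.95 and 1.15, and quiescence and lymphoid homing below 1 at 0.313, 0.562 and 0.440.

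Part of each difference was already present just below the limit. Against reference T cells of over 2000 to 2500 genes, 22 of 27 tested G2/M genes and 8 of 27 S phase genes were higher (2.01% of 5261 genes were), and 3 of 11 quiescence genes were lower (0.722% of genes were). The list ratios were 1.95 for G2/M, 1.81 for S phase, 1.41 for growth and 0.562 for quiescence. Along the bands of detected genes the G2/M list stood at 910 CPM (over 1000 to 1500 genes), 2409 CPM (over 2000 to 2500 genes) and 5347 CPM (over 3500 genes), and the quiescence list at 3497, 1793 and 628 CPM. The share of cycling cells was 34.0% at over 1000 to 1500 genes, 53.4% at over 2000 to 2500, 72.7% at over 2500 to 3000, 78.9% at over 3000 to 3500 and 95.5% over 3500 genes. Each band above 2000 genes thus had a larger share than the band below it, on both sides of the limit.

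When cycling cells were left out of both groups, 112 high-gene and 4003 reference T cells remained. These were chosen by the S phase and G2/M genes themselves, so the values of those lists are a description. Of 7 tested G2/M genes 1 was higher and of 10 S phase genes 3 were (1.44% of 6181 genes were higher), and the list ratios were 1.15 for G2/M and 1.61 for S phase. Of 14 quiescence genes 10 were still lower (4.53% of genes were), with a list ratio of 0.440. Effector genes differed in these cells, with 8 of 16 higher and a list ratio of 1.72 (1.69 to 1.75). *Gzmc* reached 990 CPM against 43.8 CPM there. Both groups pooled all lineages. With cycling cells included, CD8+ cells were 57.3% of high-gene and 25.8% of reference T cells with transcripts of 1 lineage. The effector values without cycling cells were not tested within a lineage, nor without the cell with most UMIs.

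CD8+ cells were the largest class of high-gene T cells. Of cells with transcripts of 1 lineage at 1500 UMIs, 185 of 323 high-gene T cells were CD8+ (57.3%, 51.7 to 62.7), against 25.8% of reference T cells, a difference of 31.5 points (25.7 to 37.1). Treg cells made up 28.5% against 42.8% and CD4+ Foxp3-negative cells 14.2% against 31.5%. No lineage transcript was left in 199 of the 537 cells (37.1%) at this depth. Of all 537 cells, 34.5% were CD8+ and 17.1% Treg cells at 1500 UMIs. At 6000 UMIs, which all of them reached, 212 (39.5%) were CD8+, 163 (30.4%) Treg and 49 (9.12%) CD4+ Foxp3-negative cells. Another 67 had transcripts of 2 lineages at that depth, and 46 (8.57%) had no lineage transcript. The lower Treg share depended on thinning: without it the difference was −1.65 points (−6.73 to 3.49), against −14.3 points (−19.4 to −8.75) with it. The share of CD8+ cells was 38.8% at over 2000 to 2500 genes, 51.2% at over 2500 to 3000 and 69.8% over 3500 genes. *Cd8a* stood at 238 against 107 CPM, *Cd4* at 77.5 against 210 CPM and *Foxp3* at 125 against 267 CPM. Fewer cells of a lineage and fewer transcripts per cell cannot be told apart in such sums.

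**Figure D3:**
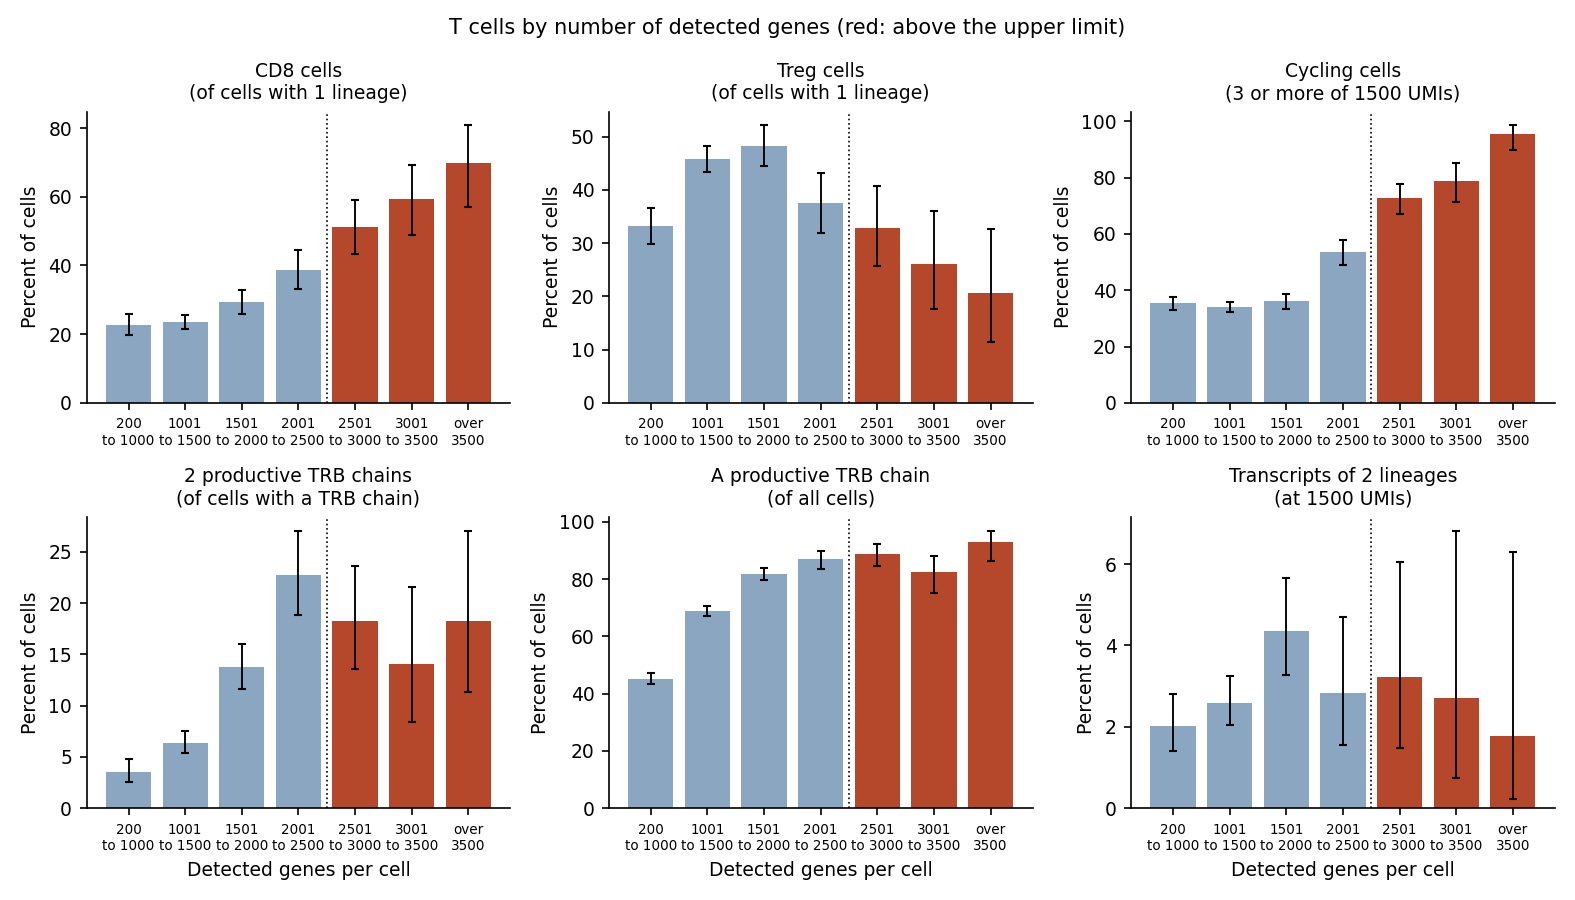
Bars give the percentage of T cells in each band of detected genes (x axis) that were CD8+, Treg, cycling, carried 2 TRB chains, carried any TRB chain or had transcripts of 2 lineages, with 95% intervals for counting error, and the dotted line marks the 2500-gene limit. Cycling and CD8+ shares are larger in each band above 2000 genes than in the one below it, whereas 2 TRB chains reach 22.7% just below the limit and 14.0 to 18.3% above it.

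Cycling cells were more frequent in each lineage. Of CD8+ high-gene T cells 80.5% were cycling against 41.0% of CD8+ reference T cells, of Treg cells 87.0% against 36.0% and of CD4+ Foxp3-negative cells 71.7% against 38.5%. Within CD8+ cells, 16 of 16 tested G2/M genes and 14 of 17 S phase genes were higher (5.01% of 3515 genes), and 11 of 12 quiescence genes were lower (4.92%). *Serpine2* (7.36), *Rrm2* (5.85) and *Gzmc* (5.23) were among their 5 highest ratios, whereas *Ccl5* stood at 1590 against 9427 CPM (0.169). Within Treg cells, 13 of 13 G2/M genes and 11 of 12 S phase genes were higher (3.37% of 3706 genes), with ratios of 14.1 for *Ccna2* and 11.9 for *Birc5*. Of 9 Treg identity genes 5 were lower there (4.4% of genes), and *Areg*, the growth factor amphiregulin, stood at 214 against 921 CPM (0.232). The list includes *Foxp3*, by which these cells were called Treg, so the value of *Foxp3* there is a description. The G2/M list had a ratio of 4.86 in Treg, 2.76 in CD8+ and 3.31 in CD4+ Foxp3-negative cells, and the difference between lineages was not tested.

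The share of transcripts lying above the limit differed between gene lists. High-gene T cells held 24.2% of all UMIs of both groups but 53.8% of the G2/M UMIs, 51.2% of the S phase UMIs and 9.07% of the quiescence UMIs. They held 59.1% of *Mki67*, 76.9% of *Gzmc* and 58.1% of *Prf1* UMIs, against 13.0% of *Foxp3*, 9.59% of *Il1rl1* (the IL-33 receptor) and 10.6% of *Areg* UMIs. Of T cells with at least 6 cell cycle UMIs at 1500 UMIs, 339 of 823 (41.2%, 37.8 to 44.6) were above the limit, and of those with at least 15, 156 of 285 (54.7%, 48.8 to 60.6). Of all T cells with 1500 UMIs, 7.87% (537 of 6820) were above it. Among CD8+ cells with at least 6 such UMIs, 118 of 225 (52.4%) were above the limit, against 17.4% of all CD8+ cells. Among Treg cells the values were 62 of 154 (40.3%) against 5.94%, and among CD4+ Foxp3-negative cells 24 of 102 (23.5%) against 4.11%.

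**Figure D4:**
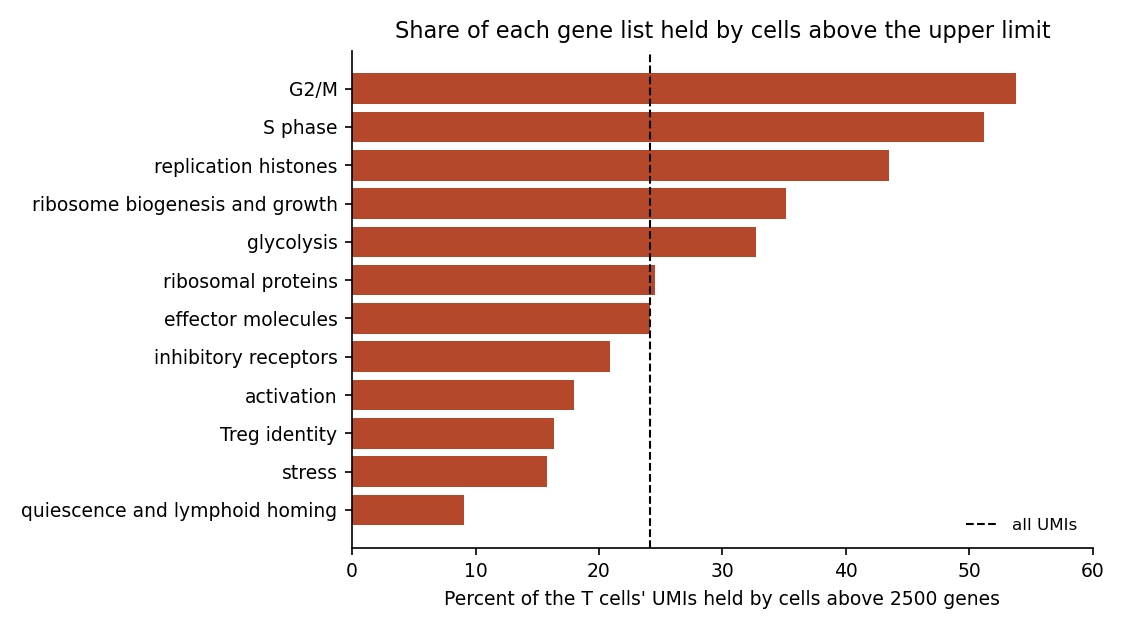
Bars give the percentage of the UMIs of each gene list, over high-gene and reference T cells together, that lay in high-gene T cells, and the dashed line marks their 24.2% share of all UMIs. G2/M (53.8%) and S phase (51.2%) lie farthest above the line and quiescence and lymphoid homing (9.07%) farthest below it.

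The T cell receptor library, which the choice of cells did not use, gave 2 productive β chains more often in high-gene than in all reference T cells. A productive β chain was found in 63.8% of reference T cells, fewer than of high-gene T cells, and in 1.79% of barcodes with *Lyz2* and no CD3. Of those with a β chain, 81 of 472 high-gene T cells had 2 (17.2%, 13.9 to 20.9) against 404 of 4591 reference T cells (8.80%), and 0 barcodes had more. The difference of 8.36 points (4.96 to 12.2) turned round against cells just below the limit, of which 98 of 431 had 2 β chains (22.7%, 18.9 to 27.0), a difference of −5.58 points (−11.0 to −0.212). The share was 3.57% at 200 to 1000 genes and 13.7% at over 1500 to 2000 genes, bands in which 45.3% and 81.8% of cells had any β chain. It was 18.2%, 14.0% and 18.3% in the 3 bands above the limit. At least 2 α chains were found in 90 of 449 high-gene T cells with an α chain, 9.33 points more than in reference T cells (10.7%), and in 21.4% of those just below the limit. Receptor chains were not thinned. The median number of β chain UMIs per cell with a β chain was 11 in high-gene T cells, 5 in reference T cells and 9 just below the limit. Whether this depth accounts for the differences was not tested.

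The second β chain was mostly supported by several UMIs. In high-gene T cells with 2 β chains the weaker chain had a median of 5 UMIs and the stronger one 10, and the weaker chain had at least 3 UMIs in 65 of 81 cells (80.2%). Both chains of a cell were each the only β chain of some other barcode in 8 of 81 cells (9.88%, 4.36 to 18.5), as in the second pair of sequences. The same held for 18 of 404 reference T cells (4.46%, 2.66 to 6.95). Of the 8 high-gene T cells, only the second pair combined CD8+ barcodes with a Treg barcode. In 43 of the 81 cells neither chain occurred alone elsewhere, as in the first pair. The same pair occurred in another barcode for 5 of the 81.

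High-gene T cells with 2 β chains differed from those with 1 in lineage and cell cycle transcripts, which the receptor library did not supply, and in α chains, which it did. At 6000 UMIs, transcripts of 2 lineages (a CD8 gene together with *Cd4* or *Foxp3*) were found in 21 of 78 cells with a lineage (26.9%) against 34 of 355 (9.58%), a difference of 17.3 points (7.28 to 28.9). They were less often cycling, 67.9% against 82.6% (difference −14.7 points, −26.6 to −3.94), and more often had 2 α chains, 35.4% against 17.1% (difference 18.3 points, 7.04 to 30.5). Their median depth was 11964 UMIs against 12551 UMIs and their median number of genes 2906 against 2988. The S phase list stood at 0.718 and the G2/M list at 0.745 times the CPM of cells with 1 β chain, and the quiescence list at 1.55 times. Of 12 tested effector genes 2 were higher (0.137% of 3654 genes) and 2 lower (0.438%). *Ccl4* and *Xcl1*, chemokines of activated CD8+ cells, had ratios of 2.48 and 2.06, and *Tcf7*, the quiescence gene that passed, one of 2.04. *Gzmf* had 4 UMIs in cells with 2 β chains and 1002 in those with 1, of which 658 were in 1 cell. The 65 high-gene T cells without a β chain were Treg cells in 46.2% and CD8+ in 13.8% at 6000 UMIs, and 72.3% of them were cycling. Reference T cells with 2 β chains also had 2 α chains more often than those with 1, 23.2% against 9.21%. They had 2 lineages at 6000 UMIs in 21.2% (13.6 to 30.6) against 14.2% (10.8 to 18.2), and 34.9% against 36.5% were cycling.

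**Figure D5:**
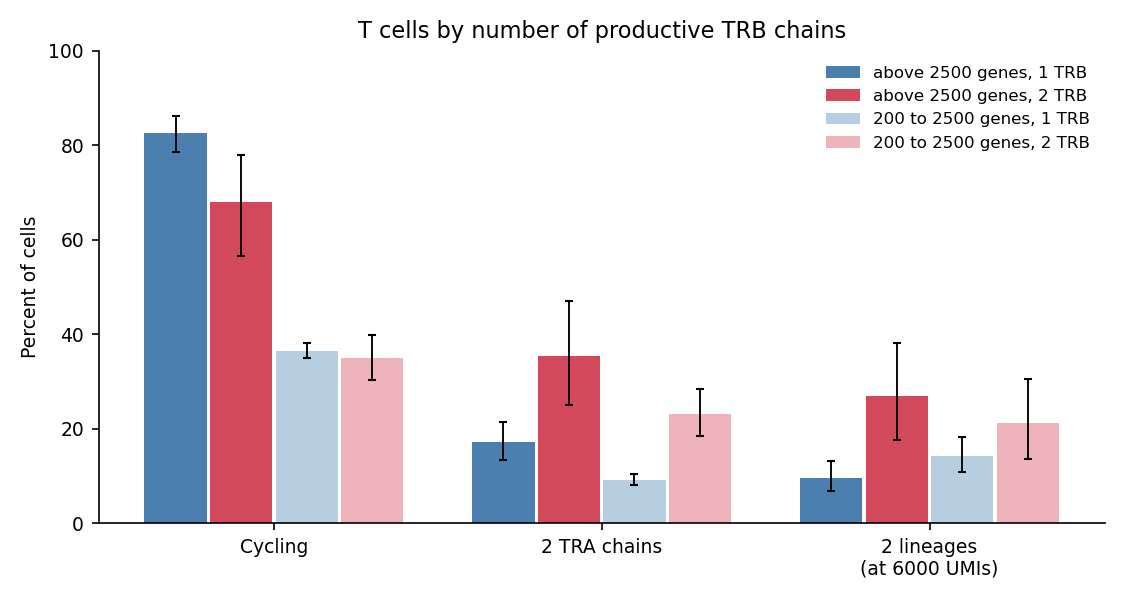
Bars give the percentage of cells that were cycling, had at least 2 TRA chains (of cells with any) or had transcripts of 2 lineages at 6000 UMIs (of cells with a lineage), for high-gene (dark) and reference (light) T cells with 1 (blue) or 2 (red) TRB chains, with 95% intervals for counting error. Among high-gene T cells, those with 2 TRB chains stand at 67.9%, 35.4% and 26.9%, against 82.6%, 17.1% and 9.58% with 1 chain.

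The expression pattern was also present in cells with a single β chain. Between 391 high-gene and 4187 reference T cells with 1 β chain, 27 of 27 tested G2/M and 24 of 26 S phase genes were higher (5.8% of 7018 genes), and 14 of 14 quiescence genes were lower (7.74%). The G2/M list had a ratio of 3.76 and the quiescence list one of 0.290. Over all high-gene T cells, 2 lineages were found in 2.79% at 1500 UMIs and in 2.80% of reference T cells. At 6000 UMIs the shares were 12.5% (67 of 537) and 15.3% (92 of 601), and without thinning 20.7% and 6.65%. At least 3 UMIs of each lineage were present in 8 of the 67 cells.

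For the following split, 2 lineages were called at 6000 UMIs and cycling at 1500 UMIs. Cycling meant at least 3 cell cycle UMIs, a limit that also called 36.3% of reference T cells. The 65 high-gene T cells without a β chain were counted as not having 2. Of the 537 high-gene T cells, 127 (23.6%) had 2 β chains or 2 lineages, and 21 had both. Another 341 (63.5%) were cycling with neither, and 69 (12.8%) showed none of the 3. Of the 127, 84 (15.6% of the 537) were also cycling. What share of these barcodes held a pair of cells was not tested. The split was not made for reference T cells. Of cells with a β chain, 22.7% of reference T cells just below the limit and 17.2% of high-gene T cells had 2. At 6000 UMIs, 15.9% and 12.5% of cells in the same order had 2 lineages, a difference within counting error.

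Most MHC class II transcripts lay in 19 high-gene T cells. All 5 tested dendritic cell markers were higher over the whole group, with *H2-Aa* at 5.97, *H2-Eb1* at 5.69, *H2-Ab1* at 4.98, *Cd74* at 2.17 and *Cst3* at 2.01 times the CPM of reference T cells. For *Cst3*, 714 of 3042 UMIs came from 1 cell, and for *Cd74* 446 of 4028, and without the cell with most UMIs the ratios were 1.54 and 1.93, short of the limit. At least 10 UMIs of the MHC class II genes *H2-Aa*, *H2-Ab1* and *H2-Eb1*, a limit set after the data were seen, were found in 19 of 537 cells (3.54%, 2.14 to 5.47), 0.375% of reference T cells and 1.61% of those just below the limit. These 19 cells had 18 to 401 such UMIs, the others at most 7, and they held 93.4% of the group's, which follows from the limit. They also held 2994 of 4028 *Cd74*, 1507 of 3042 *Cst3* and 158 of 321 *Tyrobp* UMIs, genes that the limit did not use. All 19 had *Cd74* and *Cst3*, 3 had *Xcr1*, 1 had *Flt3*, and *Siglech* was at 0. Without such cells in both groups the ratios were 0.699 for *Cd74*, 1.12 for *Cst3* and 1.18 for *Tyrobp*. Of the 19, 10 were cycling and 4 of the 16 with a β chain had 2. Leaving them out moved the G2/M and S phase ratios to 3.66 and 3.34 and the quiescence ratio to 0.305. The lowest ratios of all genes were those of haemoglobin and neutrophil genes, with *Hbb-bs* at 1 UMI against 1064, of which 624 were in 1 reference barcode, and *S100a8* at 3 against 296 UMIs, of which 232 were in 1.

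High-gene T cells, taken over all lineages, came more often from expanded clones. Of those with 1 β chain, 140 of 391 (35.8%, 31.0 to 40.8) shared it with another cell of 1 β chain, against 21.2% of reference T cells (19.9 to 22.4) and 30.6% just below the limit. In CD8+ cells the shares were 53.2% (45.0 to 61.3), 39.1% and 50.6%, and in Treg cells 27.9% (17.7 to 40.1), 18.7% and 23.3%. CD4+ *Foxp3*-negative cells had the opposite order, with 3 of 26 (11.5%, 2.45 to 30.2) against 16.9% and 23.4%. The β chain of 118 of the 391 cells (30.2%) was carried by a reference T cell. Counting those with 1 β chain, 345 clonotypes had 1 high-gene T cell, 13 had 2, 5 had 3 and 1 had 5.

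The hashtags gave few cells a tumor. Of 521 high-gene T cells in the hashtag library, 81 had tags of 1 tumor only, 75 from B16 and 6 from B16–IL-33. For this, 1 tag UMI of a tumor was enough if the other tumor had none, so the assignment is weak. Of T cells with a B16 tag, 10.1% (75 of 744) were high-gene, and of those with a B16–IL-33 tag 5.08% (6 of 118), a difference of −5.00 points (−8.99 to 1.02) that was within counting error. The difference was 1.48 points with the tags numbered 1 (−6.11 to 13.3) and −8.19 points (−12.2 to −0.542) with those numbered 2. Tags of both tumors were found on 3 of 84 tagged high-gene T cells (3.57%, 0.743 to 10.1) and on 5 of 786 tagged reference T cells (0.636%, 0.207 to 1.48).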

How the data were processed

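Live TCR-β+ cells sorted from both tumors were labelled with 2 hashtags per tumor and pooled, and 5′ libraries of 1 pool were sequenced. The authors deposited raw counts of UMIs per gene and barcode, UMI counts per hashtag and a table of assembled T cell receptor contigs with their UMIs. The matrix uses a combined reference with 31053 mouse and 33538 human genes. The submitters' notes name Cell Ranger 6.1.1, whereas the matrix header gives 3.1.0, and the cause of this difference is not known. Of the mouse gene IDs, 31011 were matched to GENCODE vM21. Barcodes of the 3 libraries were joined by name, and 6665 of 7857 in the receptor library were in the gene expression matrix. The mouse UMIs of the library summed to 43420305 over 14035 barcodes and the human UMIs to 8562.

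The members and gene lists were chosen with earlier results of these data known. Expression comes from the matrix that chose the cells, the receptor chains do not. All cells formed 1 sample, and groups were defined by the number of detected genes and the stated limits. The number of UMIs differs between groups by construction, so shares were compared after each cell was thinned, with a fixed random seed, to 1500 or 6000 UMIs, leaving out shallower cells. A CD8+ call needed at least 1 UMI of *Cd8a* or *Cd8b1* and none of *Cd4* and *Foxp3*. A Treg call needed at least 1 UMI of *Foxp3* and none of the CD8 genes, with *Cd4* allowed. A CD4+ Foxp3-negative call needed at least 1 UMI of *Cd4* and none of *Foxp3* and the CD8 genes. CPM were UMIs per 1000000 mouse UMIs, summed over cells. Genes with at least 200 UMIs over both groups were compared, leaving out receptor segments, mitochondrial genes and the genes of the rule, and a gene was called at a ratio of at least 2 or at most 0.5 with an interval that leaves out 1. Ribosomal proteins exclude pseudogenes and Rps6k kinases. Named genes are those of the lists and, among the 15 highest and 15 lowest ratios (5 each within lineages, chains or other comparisons), those of known role. Marker lists of other cell types were summed, including NK cells (139 UMIs in high-gene and 587 in reference T cells), γδ T cells (35 and 324), B and plasma cells (1059 and 6155), macrophages and monocytes (763 and 2593), dendritic cells (9904 and 12308), endothelial cells (123 and 800), and erythroid cells and platelets (43 and 1679).

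Intervals of 95% were exact: Clopper-Pearson for shares, conditional binomial for CPM ratios, and square-and-add from exact bounds for differences. Only counting error enters them, and the bounds at 0 UMIs are exact too. The ratio step was tested on simulated counts for the comparison with reference T cells. No doublet caller was run and no replicate existed. Alternatives were other limits, thinning depths, comparison cells and gene minimums. Python 3.11.15, NumPy 2.4.6, SciPy 1.17.1, pandas 2.3.3 and matplotlib 3.10.9 were used.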

Additional observations from a re-analysis of the deposited data

How the results depend on the processing

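Of 156 alternative values, 87 stayed inside the interval of the reported value or, for numbers of genes and cells, within 1.5 times of it, 68 did not, and 1 turned round: the difference in 2 β chains (8.36 points) was −5.58 points against reference T cells of over 2000 to 2500 genes, and the cause was not tested. The 4 list ratios are given in the order G2/M (3.65), S phase (3.29), quiescence (0.313) and growth (1.70). They were 1.95, 1.81, 0.562 and 1.41 against over 2000 to 2500 genes, 1.15, 1.61, 0.440 and 1.24 without cycling cells, 3.93, 3.71, 0.246 and 1.94 for cells above 3000 genes, and 3.77, 3.41, 0.294 and 1.75 without cells of 2 β chains. Within lineages they were 2.76, 2.51, 0.329 and 1.62 in CD8+, 4.86, 3.81, 0.493 and 1.57 in Treg and 3.31, 3.09, 0.340 and 1.59 in CD4+ cells. With exactly 1 β and 1 α chain G2/M, S phase and growth were 3.58, 3.37 and 1.79, and averaging the CPM of single cells 4.15, 3.47 and 1.67. G2/M and S phase were 3.49 and 3.12 with reference cells chosen by CD3 and genes alone, and 3.54 and 3.19 with a mitochondrial limit of 10%. With at least 5 CD3 UMIs G2/M and quiescence were 3.55 and 0.332, and quiescence was 0.305 without cells of MHC class II transcripts.

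Genes called higher (432) numbered 106 against over 2000 to 2500 genes, 89 without cycling cells, 706 with a minimum of 50 UMIs and 970 with none. Those called lower (563) numbered 38, 280, 894 and 1021 in the same order, and 890 for cells above 3000 genes, of which there were 259 in place of 537. The CD8+ difference (31.5 points) was 18.5 against over 2000 to 2500 genes, 47.1 with at least 2 lineage UMIs, 37.7 above 3000 genes and 25.2 without thinning. The Treg difference (−14.3 points) was −31.3 with at least 2 UMIs and −1.65 without thinning. The cycling difference (42.9 points) was 55.4 with at least 6 UMIs, 46.5 with exactly 1 β and 1 α chain, 25.7 against over 2000 to 2500 genes, 49.8 above 3000 genes, 33.7 without thinning and 18.6 at 3000 UMIs. The difference in cells of 2 lineages (−0.00791 points) was −2.36 with exactly 1 β and 1 α chain, 14.0 without thinning, −2.83 at 6000 UMIs and −1.40 without cells of 2 β chains. The tumor difference (−5.00 points) was 1.48 with the tags numbered 1.

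The reference cells of over 2000 to 2500 genes, single tags, cells without cycling or MHC class II transcripts, 6 cell cycle UMIs and 6000 UMIs were chosen after seeing the data. The depth of reference T cells limits the shares, since 917 of them had under 1500 UMIs, and receptor chains were not thinned. No paired analysis was possible because the pool is 1 sample.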
